A study of Mus musculus with 10 samples.

Results

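The clustered protocadherins of the mouse are cadherin-type adhesion receptors whose genes lie side by side in the alpha, beta and gamma clusters on chromosome 18. The members were chosen by name alone, as every identifier of the files whose gene symbol in the GENCODE M21 annotation is Pcdha, Pcdhb or Pcdhg followed by a number, or by a or b (gamma) or c (alpha, gamma) and a number. This gave 58 of 55385 identifiers: 14 alpha genes (2 of which carry the symbol Pcdha11), 22 beta genes and 22 gamma genes. On GRCm38 they extend from position 36930184 to 37841873 of chromosome 18, a stretch of 911.69 kb, all on the forward strand. Each alpha and gamma gene has a large variable exon with its own promoter, and this exon is spliced to constant exons shared by the whole cluster, while the beta genes mostly consist of a single exon and have no shared constant part. The proteins bind to identical copies on the neighbouring cell and are best known from neurons, where each cell uses a small set of them as an identity label that lets its own branches recognise each other. Which promoters are active is known to depend on DNA methylation and on looping to enhancers by CTCF and cohesin, and the C types at the end of the alpha and gamma clusters are known to be controlled differently from the alternate A and B types.

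RNA sequencing compared the murine melanoma cell line WT31 with its subline WT31_P5IV, with 5 libraries of each. WT31 was derived from a melanoma of Tyr::NrasQ61K/°; INK4a-/- mice, in which the tyrosinase promoter drives mutant NRAS in the pigment cell lineage on a background without INK4a. WT31_P5IV carries the same alleles and is 1 subline, made by 5 rounds of tail vein injection, recovery of the liver metastases and renewed culture. In both groups RNA came from untreated, sub-confluent cells in culture and not from metastases, and therefore differences between the lines are differences between 1 parental culture and 1 derived culture. The labels call the libraries biological replicates without saying what was separate, so that the p-values below measure the spread between these samples only.

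The libraries held 24255389 to 25750639 estimated counts, and the clustered protocadherins took 0.0739% to 0.0827% of them. Levels are given as CPM (counts relative to the library size, scaled by edgeR's TMM factors) for comparisons between libraries, and as TPM (relative transcript abundance, corrected for length) where genes are compared with each other. A detection limit of 3 counts corresponded to 0.114 to 0.129 CPM. WT31 replicates 2 and 3 stood apart from the other WT31 libraries, with a chi-square per gene of 3.18 between these libraries and of 9.12 to 27.5 between either of them and replicates 1, 4 or 5. The melanocyte markers Mitf, Sox10, Pmel, Mlana, Tyr, Tyrp1, Dct and S100b were abundant in all libraries, with a sum of 17113 to 18513 CPM in WT31 and of 22283 to 25776 CPM in WT31_P5IV. Of these 8 markers 3 were higher in WT31_P5IV, Pmel (log2 fold change 1.22), Dct (0.80) and Tyr (0.25), and 3 were lower, Tyrp1 (-0.96), S100b (-0.46) and Sox10 (-0.14).

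Melanoma cells of both lines expressed the beta cluster almost completely, the gamma cluster in part and the alpha cluster hardly at all. More than 3 counts were found for 21 to 22 of the 22 beta genes in each library, for 14 to 17 of the 22 gamma genes and for 1 to 3 of the 14 alpha genes. Per length, 2 neighbouring gamma genes, Pcdhgc3 and Pcdhgc4, were far above the rest. Mean TPM was 182 for Pcdhgc3 and 76.9 for Pcdhgc4 in WT31, and the next gene, Pcdhga6, had 6.98 TPM. The highest beta mean was 5.00 TPM, for Pcdhb12 in WT31_P5IV, and the highest alpha gene, Pcdhac2, had 0.414 TPM in WT31. In the plot of TPM along the locus, the alpha panel is therefore mostly empty, whereas the beta panel forms a nearly continuous band.

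**Figure D1:**
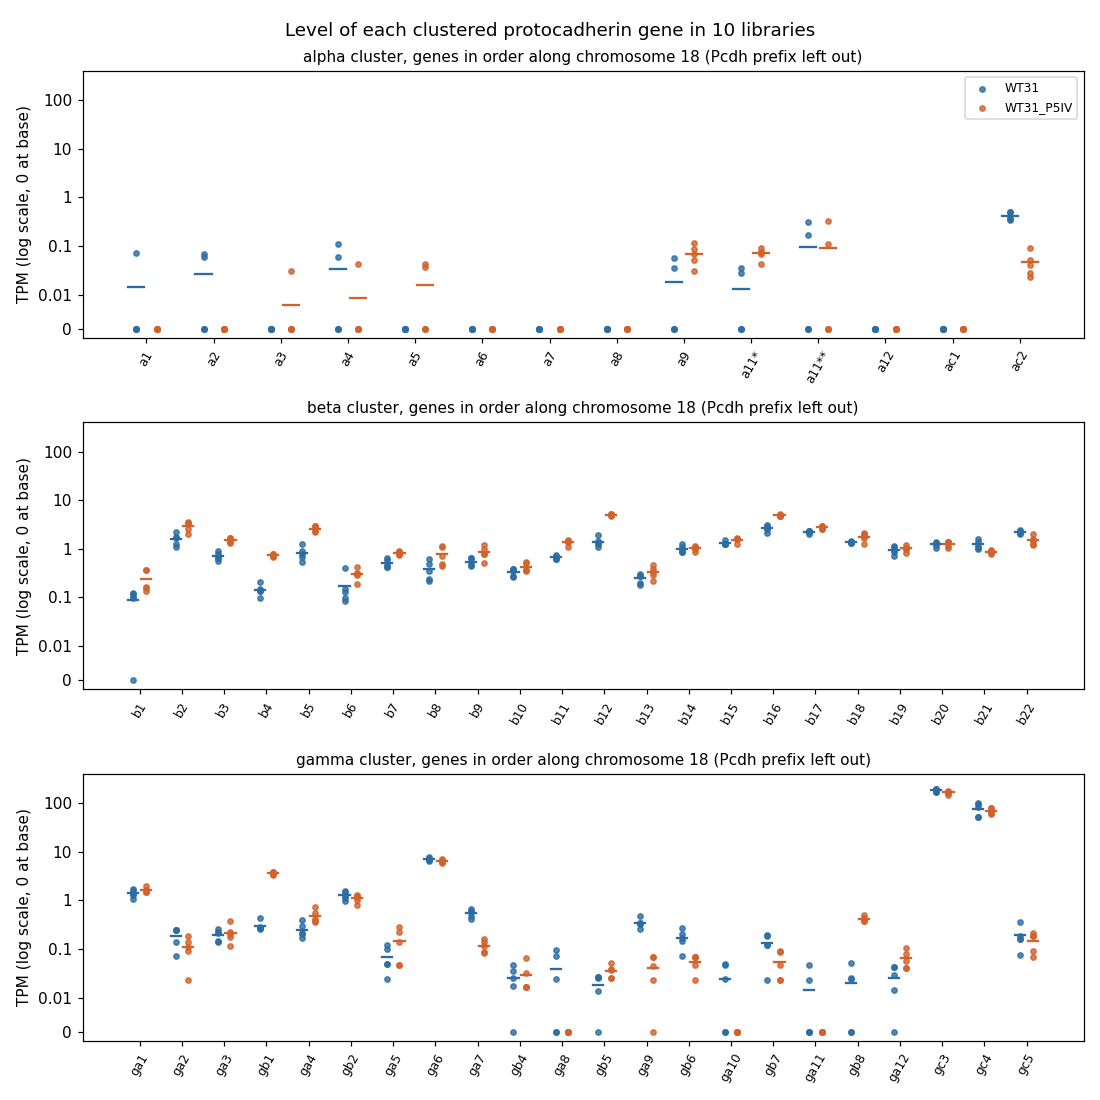
TPM of each of the 58 clustered protocadherin genes on a log axis with 0 at its base, in the order of the genes along chromosome 18, for 5 WT31 (blue) and 5 WT31_P5IV (orange) libraries, with 1 point per library and a line at the group mean. The genes marked a11* and a11** are the identifiers ENSMUSG00000007440 and ENSMUSG00000102206, which share the symbol Pcdha11. Pcdhgc3 and Pcdhgc4 lie far above the other genes, and b1 to b12 are mostly higher in WT31_P5IV.

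Of the 58 genes, 35 had enough counts to be tested, 1 alpha, 21 beta and 13 gamma genes. With an adjusted p under 0.05 (edgeR's quasi-likelihood test) as the criterion of a call, 19 of these genes were higher in WT31_P5IV, 5 were lower and 11 had no call. Among all 13620 genes tested, 34.6% were called higher and 33.9% lower, so that calls as such were common. With an additional log2 fold change of at least 1 in size, 11 members were higher and 3 lower, as compared to 5.49% and 3.69% of all genes tested. Every WT31_P5IV library lay above every WT31 library for 14 of the 35 tested members and below it for 3, while this was the case for 26.6% and 27.5% of all genes tested. The median log2 fold change was 0.49 over the tested members and 0.01 over all genes tested. The filter kept 25 of the 35 members because of both groups, 7 in part, Pcdhac2 and Pcdhga9 only because of WT31 and Pcdhgb8 only because of WT31_P5IV. The latter 3 genes could enter the test only by being high in 1 line and had to differ, and they are included in the counts of this paragraph. Without WT31 replicates 2 and 3, a setting chosen after seeing the data, 18 members were higher and 5 lower.

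**Figure D2:**
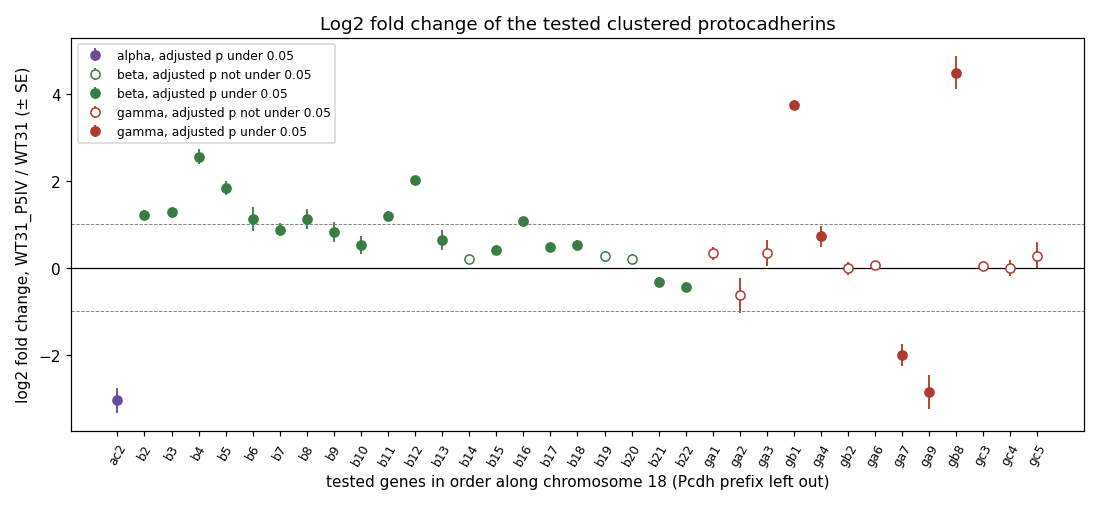
Log2 fold change of WT31_P5IV over WT31 from edgeR (points) with its standard error (bars) for the 35 tested members in the order of chromosome 18. Filled points had an adjusted p under 0.05, open points did not, and dashed lines mark log2 fold changes of 1 and -1. Changes in the beta cluster are mostly upwards and tend to be larger in the front part of the cluster, with exceptions such as b10 (0.52) and b16 (1.08), while single genes of the gamma cluster deviate in both directions, up to 4.48 for gb8 and down to -2.85 for ga9.

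In the alpha cluster, the C-type gene Pcdhac2 (ENSMUSG00000102697, 37143503 to 37187657) was the only member above the filter, and it was lower in WT31_P5IV. The 5 WT31 libraries held 49, 48, 36, 34 and 36 counts of Pcdhac2 and the 5 WT31_P5IV libraries 2, 9, 3, 5 and 4. All WT31 libraries lay clearly above all WT31_P5IV libraries, of which replicate 2 was highest. Mean levels were 1.58 ± 0.261 CPM (SD, n = 5) in WT31 and 0.201 ± 0.118 CPM (SD, n = 5) in WT31_P5IV. The log2 fold change was -3.04 with a standard error (SE) of 0.28 (adjusted p = 2.25e-07), and the summed counts, scaled for library size, were 8.26-fold lower, with an exact 95% interval for counting error of 5.35 to 13.3. Pcdhac2 passed the filter only because of WT31 and had to differ, so that its p-value and interval are no independent support for a difference.

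The remaining alpha genes were near or below the detection limit. Pcdha6, Pcdha7, Pcdha8, Pcdha12 and Pcdhac1 had 0 counts in all 10 libraries, which allows up to 3 counts or 0.114 to 0.129 CPM in each. Pcdha9 had 3, 5, 0, 0 and 0 counts in WT31 and 3, 8, 11, 6 and 5 in WT31_P5IV, so that the groups overlapped. The Pcdha11 gene ENSMUSG00000102206, which had the second highest mean TPM of the cluster in WT31 and the highest in WT31_P5IV (0.0888 TPM), had at most 2 counts in WT31 (0, 0, 0, 2 and 1) and at most 3 in WT31_P5IV (3, 0, 1, 0 and 0). The other Pcdha11 identifier, ENSMUSG00000007440, had 0, 2, 3, 0 and 0 counts in WT31 and 8, 4, 7, 6 and 7 in WT31_P5IV. This identifier lies between Pcdha9 and the other Pcdha11 and starts close to the gene that RefSeq calls Pcdha10, so that its counts may belong to a gene of that name. Each WT31_P5IV library was above each WT31 library, but the gene did not pass the filter. In the alternative edgeR fit of genes with at least 1 count, this identifier was called higher (log2 fold change 2.72, adjusted p = 0.000926), as was Pcdha9 (2.08, adjusted p = 0.00806). Pcdha1 to Pcdha5 had at most 7 counts in any library. Of these, the fit at 1 count called Pcdha5 higher (3.62, adjusted p = 0.0312) and Pcdha2 lower (-4.20, adjusted p = 0.0109).

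The summed alpha level was 1.93 ± 0.278 CPM in the parental line and 0.883 ± 0.104 CPM in the subline (SD, n = 5 each), without overlap of the groups in CPM but with overlap in TPM. Without Pcdhac2, the other 13 alpha genes summed to 0.357 ± 0.140 CPM in WT31 and 0.682 ± 0.156 CPM in WT31_P5IV, and the libraries of the lines overlapped. Pcdhac2 made up 69.4% ± 18.4 of the alpha TPM in WT31 and 19.1% ± 14.7 in WT31_P5IV (± SD over n = 5 each).

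The beta cluster was higher in WT31_P5IV. Its summed level was 59.9 ± 4.21 CPM in the parental line and 101 ± 4.62 CPM in the subline (SD, n = 5 each), a ratio of 1.68 that was not tested as a sum. The WT31 libraries summed to 55.0 to 65.4 CPM and the WT31_P5IV libraries to 94.8 to 106 CPM, far apart from each other. On the TPM scale the ratio was 1.59, again without overlap. Of the 21 beta genes tested 16 were higher and 2 lower (34.6% and 33.9% of all genes tested), with a median log2 fold change of 0.82, and 9 were higher by at least 1 on the log2 scale (5.49% of all genes tested). In 12 of them every library of the subline was above the parental ones (26.6% of all genes tested). Pcdhb1 was not tested, and it had 5, 4, 4, 0 and 5 counts in WT31 and 16, 6, 7, 7 and 16 in WT31_P5IV.

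Changes were not equal along the beta cluster. Genes near its start had the larger log2 fold changes, with a Spearman correlation of -0.82 between gene order and log2 fold change over the 21 tested genes, which share the same libraries and partly similar sequences. When the cluster was divided behind Pcdhb12, a division chosen after the values were seen, all 11 tested genes from Pcdhb2 to Pcdhb12 were higher in WT31_P5IV, with a median log2 fold change of 1.19. Of the 10 genes from Pcdhb13 to Pcdhb22, 5 were higher and 2 lower, with a median of 0.33. Among all genes tested, 34.6% were called higher and 33.9% lower. The summed level of Pcdhb1 to Pcdhb12 was 14.4 ± 1.26 CPM in WT31 and 39.9 ± 1.88 CPM in WT31_P5IV, and that of Pcdhb13 to Pcdhb22 was 45.5 ± 3.20 CPM and 60.9 ± 3.37 CPM (SD, n = 5 each). In WT31, genes near the end of the cluster were the more abundant ones per length, with a Spearman correlation of 0.53 between order and mean TPM, and in WT31_P5IV this correlation was 0.16.

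Among the genes at the start of the cluster, Pcdhb4 (37307455 to 37311172) changed most. Its counts were 8, 8, 12, 9 and 6 in WT31 and 46, 46, 52, 43 and 49 in WT31_P5IV, where every library had at least 43. The log2 fold change was 2.55 (SE 0.18, adjusted p = 1.10e-08). Pcdhb5 (37320381 to 37323915) had 1.21, 2.65, 1.69, 2.08 and 1.58 CPM in WT31 and 7.29, 7.55, 5.55, 6.70 and 5.68 CPM in WT31_P5IV. WT31 replicate 2 was its highest parental library and still below each library of the subline. Its log2 fold change was 1.82 (SE 0.16, adjusted p = 1.60e-07).

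Pcdhb2 and Pcdhb3 rose to a similar extent. Pcdhb2 (37294812 to 37297624) had 1.88, 2.195, 2.55, 2.16 and 1.90 CPM in WT31 and 5.13, 5.23, 5.59, 4.00 and 4.83 CPM in WT31_P5IV, without overlap. Its log2 fold change was 1.21 (SE 0.12, adjusted p = 3.58e-07). Pcdhb3 (37300799 to 37304585) had 1.57, 1.78, 2.08, 1.61 and 1.39 CPM in WT31 and 4.08, 3.90, 4.54, 4.46 and 3.43 CPM in WT31_P5IV. Here too the parental and the passaged libraries were separated, and the log2 fold change was 1.28 (SE 0.13, adjusted p = 4.78e-07). Pcdhb11 (37421418 to 37425836) went from 1.96, 1.67, 1.73, 2.12 and 1.98 CPM to 4.79, 4.46, 3.46, 4.55 and 4.30 CPM, and its log2 fold change was 1.19 (SE 0.12, adjusted p = 4.21e-07). For this gene, all libraries of the subline exceeded the parental ones.

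Pcdhb6 and Pcdhb8 were called higher at low counts. Pcdhb6 (37333921 to 37337674) had 5, 8, 9, 6 and 11 counts in WT31 and 19, 12, 11, 18 and 19 in WT31_P5IV. In CPM its groups lay side by side without overlap, at most 0.436 in WT31 and at least 0.442 in WT31_P5IV, and the log2 fold change was 1.11 (SE 0.27, adjusted p = 0.00223). The call was lost with limma on log2 of TPM plus 0.1 or plus 1 (adjusted p up to 0.102). Pcdhb8 (37355121 to 37358604) had 13, 19, 26, 12 and 17 counts in WT31 and 43, 40, 29, 40 and 25 in WT31_P5IV, and although WT31 replicate 3 exceeded WT31_P5IV replicate 5 in counts, the CPM values did not overlap. Its log2 fold change was 1.12 (SE 0.23, adjusted p = 0.000622). Pcdhb2, Pcdhb6 and Pcdhb8 have 2 annotated transcripts of unequal length each, and in TPM their groups overlapped.

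Pcdhb12 (37435621 to 37438654) became the most abundant beta gene per length in WT31_P5IV, with a mean of 5.00 TPM as compared to 1.40 TPM in WT31. Its levels were 2.51, 3.52, 2.70, 2.40 and 2.14 CPM in WT31 and 10.3, 11.4, 10.7, 10.5 and 10.7 CPM in WT31_P5IV. The libraries of each line were close together and the lines far apart. The log2 fold change was 2.01 (SE 0.10, adjusted p = 3.99e-10). Of the 31-base words in the transcripts of Pcdhb12, 66.9% occur in other genes, more than for the other beta genes, where this share was 0 to 19.4%. Of all its words, 63.1% occur in genes outside the family, among them the antisense gene Gm37446, which had at most 3 counts in any library.

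In the remainder of the cluster, Pcdhb16 (37477814 to 37483038) was the gene with a log2 fold change of at least 1. It had 8.66, 9.99, 9.61, 8.65 and 7.21 CPM in WT31 and 20.02, 18.7, 18.3, 18.2 and 17.9 CPM in WT31_P5IV. No library of the subline came near the parental range, and the log2 fold change was 1.08 (SE 0.08, adjusted p = 1.10e-08). Pcdhb16 was the beta gene with the highest mean TPM in WT31 (2.63) and close behind Pcdhb12 in WT31_P5IV (4.90). Pcdhb17 (37484795 to 37489454) had 6.94, 6.74, 6.82, 6.68 and 6.22 CPM in WT31 and 9.59, 10.1, 8.61, 8.80 and 9.70 CPM in WT31_P5IV. The difference was smaller but again without overlap, with a log2 fold change of 0.49 (SE 0.07, adjusted p = 1.20e-05).

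Other beta genes had smaller differences. Pcdhb7 (log2 fold change 0.87), Pcdhb9 (0.82), Pcdhb10 (0.52), Pcdhb13 (0.64), Pcdhb15 (0.40) and Pcdhb18 (0.53) were called higher, and of these Pcdhb7 and Pcdhb18 showed no overlap between the lines. The calls of Pcdhb10 (adjusted p = 0.0355) and Pcdhb13 (adjusted p = 0.0249), both at mean levels under 1 CPM in either line, were lost in several alternative fits, with adjusted p up to 0.179 and 0.185. Leaving out WT31 replicate 2 or 3 or WT31_P5IV replicate 1 was sufficient to lose both calls. Pcdhb14 (0.19, adjusted p = 0.0895), Pcdhb19 (0.26, adjusted p = 0.0657) and Pcdhb20 (0.21, adjusted p = 0.147) had no call. Pcdhb15 lost its call in 4 alternatives (adjusted p up to 0.114) and Pcdhb18 in 1 (adjusted p = 0.0567), whereas Pcdhb14 was called higher in 3 (adjusted p down to 0.00523) and Pcdhb19 in 5 (adjusted p down to 0.0109), among them the fits without WT31 replicate 2 alone or together with replicate 3.

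The last genes of the cluster, Pcdhb21 and Pcdhb22, were the ones called lower in WT31_P5IV. Pcdhb22 (37517871 to 37524479) had 5.66, 6.60, 5.94, 6.70 and 5.11 CPM in WT31 and 4.75, 4.53, 3.61, 3.68 and 5.64 CPM in WT31_P5IV. Only WT31_P5IV replicate 5 reached into the parental range, and the log2 fold change was -0.44 (SE 0.12, adjusted p = 0.00527). Pcdhb21 fell from 3.72 ± 0.648 CPM to 2.98 ± 0.171 CPM (SD, n = 5 each), with a log2 fold change of -0.32 (SE 0.12, adjusted p = 0.0255). This call did not hold without WT31 replicate 3, without WT31_P5IV replicate 2 or without WT31 replicates 2 and 3 together (adjusted p up to 0.210). The genes Pcdhb21 and Pcdhb22 overlap by their annotated ends, so that reads from this stretch can belong to either. In TPM, Pcdhb22 provided 10.1% ± 0.656 of the beta cluster in WT31 and 4.32% ± 0.792 in WT31_P5IV, and Pcdhb12 6.39% ± 1.04 and 14.5% ± 0.640 (SD, n = 5 each).

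The gamma cluster was dominated by the C-type genes Pcdhgc3 and Pcdhgc4 in both lines. Pcdhgc3 (37806364 to 37841873) had 526, 576, 584, 525 and 517 CPM in WT31 and 553, 602, 608, 491 and 564 CPM in WT31_P5IV. The lines overlapped broadly, and the log2 fold change was 0.05 (SE 0.06, adjusted p = 0.482). Pcdhgc4 (37815079 to 37841873) had 116, 69.0, 71.5, 137 and 146 CPM in WT31 and 122, 104, 91.8, 123 and 96.5 CPM in WT31_P5IV. WT31 replicates 2 and 3 were the lowest of all libraries and replicates 4 and 5 the highest, so that the parental line alone spanned the whole range. The log2 fold change was -0.01 (SE 0.18, adjusted p = 0.976). Without WT31 replicates 2 and 3, Pcdhgc4 was called lower in WT31_P5IV, with a log2 fold change of -0.32 (adjusted p = 0.00416).

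Pcdhgc4 was low in those libraries where Pcdhgc3 was high. In WT31, replicates 2 and 3 had the lowest Pcdhgc4 and the highest Pcdhgc3, and the sum of both genes varied little, with 643, 645, 656, 662 and 663 CPM. In WT31_P5IV the sum was 675, 706, 700, 615 and 661 CPM, and the means of 654 ± 9.43 and 671 ± 36.5 CPM (SD, n = 5 each) were within the spread of the subline. The counts and TPM of Pcdhgc4 correspond to a transcript length of 2183 to 2190 bases, scaled on 14 beta genes with a single transcript each. Its annotated transcripts have 5024, 3100 and 2272 bases, and the shortest holds 151 of 2242 31-base words found in no other gene. For Pcdhgc3 the corresponding length was 4710 to 4716 bases, close to its transcript of 4687 bases. The part of the assignment of shared reads in the opposite values of Pcdhgc4 and Pcdhgc3 was not tested.

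**Figure D3:**
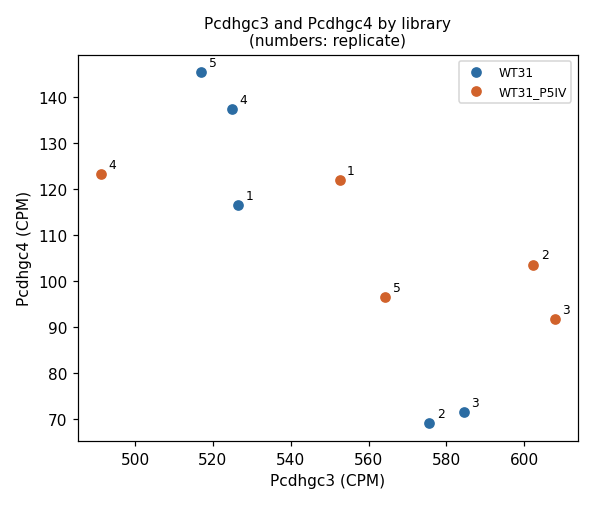
CPM of Pcdhgc4 against CPM of Pcdhgc3 in the 5 WT31 (blue) and 5 WT31_P5IV (orange) libraries, numbered by replicate, with axes that do not start at 0. WT31 replicates 2 and 3 lie at the lower right, at 69.0 and 71.5 CPM of Pcdhgc4, apart from replicates 1, 4 and 5 at the upper left.

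The third C type, Pcdhgc5, was rare, with 7 to 16 counts in WT31 and 7 to 22 in WT31_P5IV, and was not called (log2 fold change 0.28, SE 0.31, adjusted p = 0.439). Together, the 22 gamma genes summed to 689 ± 8.98 CPM in the parental line and 719 ± 38.9 CPM in the subline (± SD over n = 5 each), a ratio of 1.04 with overlap of the lines. This sum does not depend on how reads of the constant exons were divided among the 22 genes, but other annotated genes such as Gm38182 share words with them and can still take part of the reads. On the TPM scale the direction was opposite, 271 ± 7.50 and 249 ± 8.50 (SD, n = 5 each), a ratio of 0.920 without overlap. The TPM scale shifted the median log2 fold change of all genes tested by -0.17, and no direction is given for the cluster as a whole. In TPM, Pcdhgc3 made up 67.3% ± 7.54 and 66.7% ± 4.05 of the gamma cluster in WT31 and WT31_P5IV, and Pcdhgc4 28.2% ± 8.06 and 27.5% ± 4.10 (SD, n = 5 each).

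Below these C types, the 19 A- and B-type genes of the gamma cluster changed in composition. The most abundant of them in both lines was Pcdhga6 (37707039 to 37841873), which had 20.8, 22.8, 20.7, 21.98 and 19.8 CPM in WT31 and 23.5, 22.5, 24.1, 19.8 and 20.6 CPM in WT31_P5IV. These values overlapped, and the log2 fold change was 0.06 (SE 0.06, adjusted p = 0.411). Among the A and B types that passed the filter, Pcdhgb1, Pcdhgb8, Pcdhga7 and Pcdhga9 had a log2 fold change of at least 1 in size. In the edgeR fit at 1 count, Pcdhga5 was also called higher (1.24, adjusted p = 0.0231), and Pcdhgb6 (-1.40, adjusted p = 0.00368) and Pcdhgb7 (-1.15, adjusted p = 0.0467) were called lower, although the libraries of both lines overlapped in each. Pcdhga8 and Pcdhga10, with 0 counts in all WT31_P5IV libraries, were called lower in that fit too (adjusted p = 0.00258 and 0.0101).

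Pcdhgb1 (37680233 to 37841870) went up most clearly. It had 0.820, 0.788, 1.29, 0.805 and 0.876 CPM in WT31 and 12.7, 12.7, 12.98, 11.2 and 11.5 CPM in WT31_P5IV, corresponding to 20 to 33 and 267 to 323 counts. WT31 replicate 3 was the highest parental library and still far below the subline. The log2 fold change was 3.74 (SE 0.11, adjusted p = 1.67e-12), or 13.4-fold. Mean TPM of Pcdhgb1 was 0.303 in WT31 and 3.595 in WT31_P5IV, where it ranked behind Pcdhga6 among the A and B types.

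Pcdhgb8 (37761801 to 37841870), annotated as a polymorphic pseudogene, was near the detection limit in WT31 with 0, 2, 4, 2 and 0 counts and had 32, 39, 36, 30 and 30 counts in WT31_P5IV. All libraries of the subline were similar to each other and above the parental ones. The log2 fold change was 4.48 (SE 0.39, adjusted p = 1.07e-07). Pcdhgb8 passed the filter only because of WT31_P5IV and had to differ, so that its p-value and interval are no independent support for a difference. The summed counts were 8 and 167, and their ratio after scaling for library size was 22.3, with an exact 95% interval for counting error of 11.1 to 52.5. This interval takes estimated counts for whole reads and leaves out the error of dividing shared reads among genes, as do the intervals of the other members. Without WT31 replicates 2 and 3, the log2 fold change of Pcdhgb8 was 5.71, since 6 of its 8 parental counts were in these libraries.

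Pcdhga7 and Pcdhga9 went down. Pcdhga7 (37714764 to 37841873), which lies directly behind Pcdhga6, had 31, 28, 44, 43 and 54 counts in WT31 and 11, 9, 7, 13 and 7 in WT31_P5IV. The groups were clearly separated, at 1.57 ± 0.421 and 0.395 ± 0.115 CPM (SD, n = 5 each), and the log2 fold change was -1.99 (SE 0.25, adjusted p = 6.48e-06). Pcdhga9 (37736936 to 37841870) had 20, 18, 33, 25 and 27 counts in WT31 and 5, 5, 4, 0 and 2 in WT31_P5IV. No passaged library reached the parental range, and the log2 fold change was -2.85 (SE 0.39, adjusted p = 1.20e-05). The summed counts of Pcdhga9, scaled for library size, were 7.19-fold lower in WT31_P5IV, with an exact 95% interval for counting error of 4.26 to 12.98. Pcdhga9 passed the filter only because of WT31 and had to differ, so that its p-value and interval are no independent support for a difference.

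**Figure D4:**
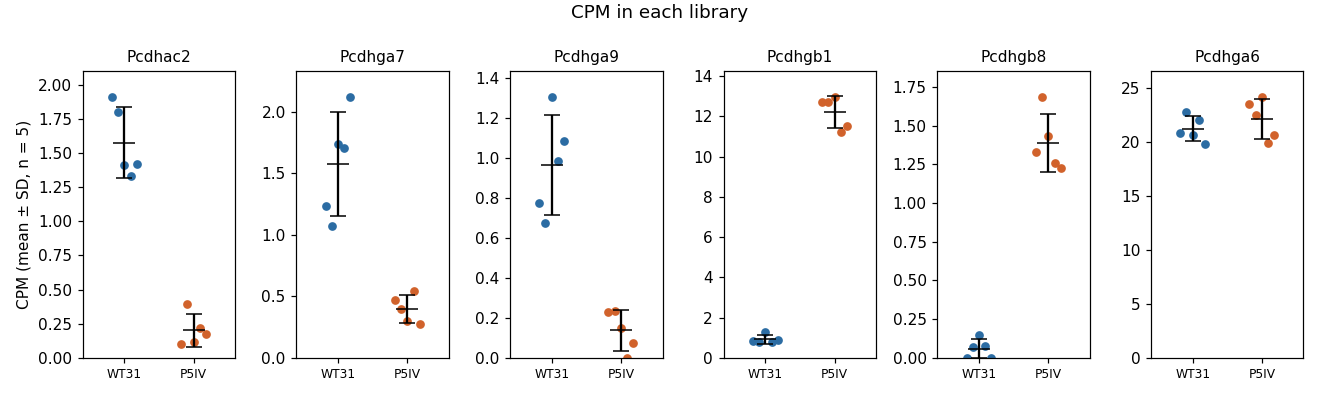
CPM of Pcdhac2, Pcdhga7, Pcdhga9, Pcdhgb1, Pcdhgb8 and Pcdhga6 in each of 5 WT31 (blue) and 5 WT31_P5IV (orange, labelled P5IV) libraries, with the group mean and SD in black and a separate axis from 0 for each gene. Pcdhac2, Pcdhga7 and Pcdhga9 are lower in all WT31_P5IV libraries, Pcdhgb1 and Pcdhgb8 are higher, and Pcdhga6 overlaps.

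Among the other A and B types, Pcdhga4 was called higher (0.566 ± 0.104 and 0.941 ± 0.297 CPM, SD, n = 5 each), with a log2 fold change of 0.73 (SE 0.24, adjusted p = 0.0159), and this call was lost with voom without TMM and with a filter of at least 1 count, without WT31_P5IV replicate 1 and without WT31 replicates 2 and 3 (adjusted p up to 0.0817). Pcdhga1 (3.51 ± 0.688 and 4.43 ± 0.704 CPM, log2 fold change 0.33, adjusted p = 0.0543), Pcdhgb2 (3.61 ± 0.577 and 3.57 ± 0.634 CPM, -0.01, adjusted p = 0.939), Pcdhga2 (-0.63, adjusted p = 0.170) and Pcdhga3 (0.34, adjusted p = 0.310) were not called. Pcdhga1 was called higher in 6 alternatives, among them without WT31 replicate 2 and without WT31 replicate 3 (adjusted p down to 0.0119). The rest did not pass the filter. Pcdhga8, Pcdhga10 and Pcdhga11 had at most 7 counts in WT31 libraries and 0 in all WT31_P5IV libraries. Pcdhgb6 had 6 to 20 counts in WT31 and 2 to 6 in WT31_P5IV, Pcdhgb7 2 to 15 and 2 to 7, and Pcdhga5 2 to 9 and 4 to 22. Pcdhgb4, Pcdhgb5 and Pcdhga12 had at most 8 counts in any library.

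The A and B types summed to 35.1 ± 2.03 CPM in the parental line and 47.6 ± 2.60 CPM in the subline (SD, n = 5 each), a ratio of 1.36, and the groups did not overlap in CPM or in TPM, where the ratio was 1.21. In TPM, the share of Pcdhgb1 among the A and B types was 2.52% ± 0.506 in WT31 and 24.7% ± 0.517 in WT31_P5IV, and that of Pcdhga6 58.4% ± 3.01 and 44.4% ± 1.73 (SD, n = 5 each). Pcdhga7 accounted for 4.61% ± 1.17 and 0.798% ± 0.247, Pcdhgb8 for 0.157% ± 0.164 and 2.86% ± 0.285, and Pcdhga1 for 11.5% ± 1.49 and 11.1% ± 1.33. The plot of composition shows that all 5 libraries of a line shared the pattern of that line.

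**Figure D5:**
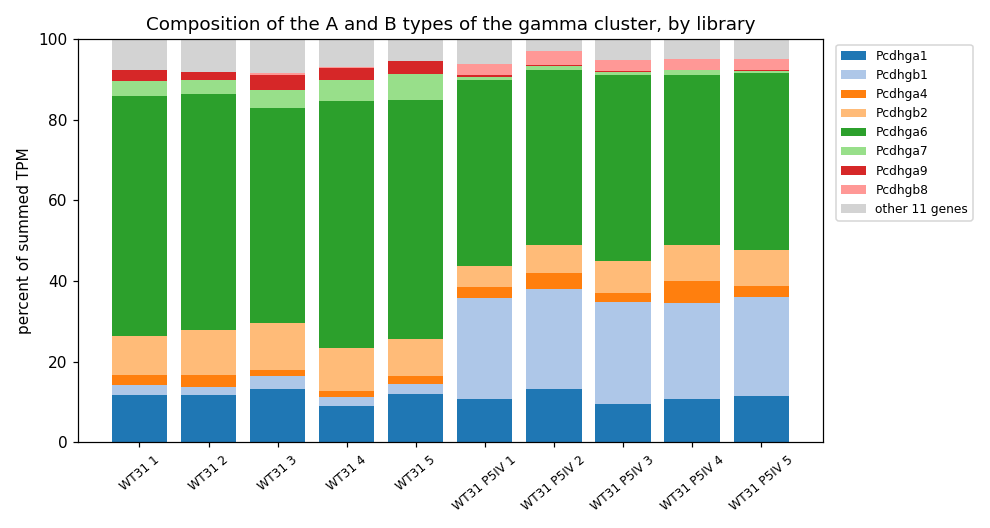
Share of each gene in the summed TPM of the 19 A- and B-type genes of the gamma cluster, as percent, for each library, with genes that average over 2% in neither line combined in grey. Pcdhga6 (dark green) is the largest share in all 10 libraries, and Pcdhgb1 (light blue) takes 23.9% to 25.2% in WT31_P5IV as compared to 2.02% to 3.34% in WT31.

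The assignment of reads to single genes was of unequal certainty. For alpha genes, 48.4% to 92.2% of the 31-base words in their transcripts occur in other genes, mostly through the shared constant exons. In the gamma cluster this share was 63.9% for Pcdhgb1, 52.3% for Pcdhgb8, 50.1% for Pcdhga7, 41.3% for Pcdhga9 and 99.4% for Pcdhga10, so that low counts of these genes can include reads of others. Of 14 gamma genes examined for a common step in their low counts, 5 had counts within 0.05 of a step of whole multiples of 1.85 to 1.87, and 9, Pcdhgb8 and Pcdhga9 among them, had no step within this tolerance. When only members with at most 25% of shared words were counted, a setting chosen after seeing the data, 20 were tested, all of them beta genes, of which 15 were higher and 2 lower (34.6% and 33.9% of all genes tested).

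Next, the genes between and around the clusters were examined. Of 91 other annotated genes between the clusters or within 1 Mb on either side, 35 were tested, and 11 were higher and 17 lower in WT31_P5IV (34.6% and 33.9% of all genes tested), with log2 fold changes from -1.48 to 0.87 and a median of -0.13. For chromosome 18 without the members, 87 of 324 tested genes were higher and 151 lower, with a median of -0.11. Taf7, a transcription initiation factor gene between the beta and gamma clusters, had 7.89 ± 0.781 CPM in the parental line and 7.25 ± 0.621 CPM in the subline (± SD over n = 5 each) and was not called (log2 fold change -0.12, adjusted p = 0.208). Directly in front of the alpha cluster, Hars2, which encodes the mitochondrial histidyl-tRNA synthetase, was higher (0.46, adjusted p = 2.37e-06) and Zmat2 lower (-0.46, adjusted p = 4.89e-07). Directly behind the gamma cluster, Diaph1, an actin-nucleating formin, rose from 41.3 ± 1.31 to 72.6 ± 5.08 CPM (SD, n = 5 each), with a log2 fold change of 0.81 (adjusted p = 1.92e-09), while the histone deacetylase gene Hdac3 was not called (0.05, adjusted p = 0.376). Inside the gamma cluster, the antisense gene BC037039, which overlaps the start of Pcdhgc3, was lower (-0.77, adjusted p = 0.00154), as was Gm38182 in the constant region (-1.06, adjusted p = 0.000160). Whether counting used the strand is not given in the sources used here, so that reads of BC037039 and Pcdhgc3 may not be told apart.

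The genes known to act on promoter choice and chromatin at the locus had small log2 fold changes. Of 24 listed genes, all tested, 7 were higher and 6 lower (34.6% and 33.9% of all genes tested), with log2 fold changes from -0.51 to 0.45 and a median of -0.02. Ctcf, which encodes the insulator protein that binds the variable promoters, fell from 139 ± 8.53 to 125 ± 2.87 CPM (SD, n = 5 each), with a log2 fold change of -0.16 (adjusted p = 0.00470), and the cohesin subunit gene Rad21 was not called (-0.07, adjusted p = 0.148). Of the other cohesin genes listed, Stag1 (-0.18, adjusted p = 0.0131), Stag2 (-0.26, adjusted p = 0.00407) and Wapl (-0.32, adjusted p = 0.000974) were lower. Mau2 was higher (0.45, adjusted p = 7.80e-07), and Smc1a, Smc3, Nipbl, Pds5a and Pds5b were not called. Smchd1, a chromatin protein known to repress clustered protocadherins, fell from 154 ± 19.0 to 108 ± 4.95 CPM (SD, n = 5 each), with a log2 fold change of -0.51 (adjusted p = 1.44e-05). The DNA methyltransferase genes Dnmt1 (0.14, adjusted p = 0.00261) and Dnmt3b (0.32, adjusted p = 0.000272) were higher, as was Uhrf1, the cofactor of Dnmt1 (0.32, adjusted p = 1.61e-07), and Dnmt3a was not called (0.17, adjusted p = 0.0672). Without WT31 replicates 2 and 3, the number of genes called higher in this list was 12.

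Of 26 listed genes for binding partners and protein processing, 23 were tested, and 8 were higher and 11 lower (34.6% and 33.9% of all genes tested), with a median log2 fold change of -0.09. Adam10, whose product sheds the extracellular part of these receptors, was not called (0.11, adjusted p = 0.127). Ncstn, which encodes a subunit of the gamma-secretase that acts on the remaining membrane stub, was higher (0.77, adjusted p = 4.37e-10). Of the WAVE complex, an actin regulator that the alpha constant part and other protocadherins can bind, Cyfip2 fell from 240 ± 8.82 to 83.9 ± 1.08 CPM (SD, n = 5 each), with a log2 fold change of -1.52 (adjusted p = 9.32e-14). Nckap1l, the subunit typical of blood cells, had 2 counts in all WT31 libraries together and 137 in WT31_P5IV, a ratio of 73.2 after scaling for library size, with an exact 95% interval for counting error of 19.9 to 610.5. Its mean in WT31_P5IV was only 1.14 CPM, as compared to 646 CPM for the related Nckap1. Abi3, also rare, was higher (1.19, adjusted p = 0.00529). Nckap1 (-0.23), Cyfip1 (-0.25), Abi1 (-0.35), Abi2 (-0.26), Wasf1 (-0.62) and Wasf2 (-0.36) were called lower, and Brk1 higher (0.14). Ptk2b, a kinase that binds the constant parts, was too low for the test, at 0.288 ± 0.0972 and 0.176 ± 0.0630 CPM (SD, n = 5 each).

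Among 12 non-clustered protocadherin genes, which lie outside the clusters and have no shared constant exons, 5 were tested, and 1 was higher and 3 lower (34.6% and 33.9% of all genes tested). Pcdh10 was higher (0.665 ± 0.105 and 1.34 ± 0.215 CPM, SD, n = 5 each), with a log2 fold change of 1.02 (adjusted p = 0.000140). Pcdh1, on chromosome 18 from 38185914 to 38212053, fell from 11.8 ± 0.774 to 4.25 ± 0.281 CPM (-1.48, adjusted p = 2.34e-10) and Pcdh19 from 12.3 ± 1.32 to 7.91 ± 0.456 CPM (-0.64, adjusted p = 3.58e-06). Pcdh18, on chromosome 3, had 84 to 111 counts in each WT31 library and 1 count in all WT31_P5IV libraries together, 461-fold lower after scaling for library size, with an exact 95% interval for counting error of 82.4 to 18260. Pcdh7 had 99.6 ± 5.82 and 97.4 ± 6.09 CPM (SD, n = 5 each) and was not called (-0.03, adjusted p = 0.577).

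Since protocadherins are best known from neurons and the subline had passed through the liver, marker genes of other cell types were examined in the same libraries. In bulk samples, fewer expressing cells and less RNA per cell cannot be told apart. Of 8 neuron markers, Tubb3 made up nearly the whole sum (474 to 594 CPM in WT31, 347 to 389 CPM in WT31_P5IV), Syt1 had 0 counts and Rbfox3 and Snap25 at most 1. Tubb3 and Syp were tested, and Tubb3 was lower in WT31_P5IV. The 8 hepatocyte markers summed to 0.629 to 0.871 CPM in WT31 and 0.867 to 1.43 CPM in WT31_P5IV, with Serpina1a, Fgb and Cyp3a11 at 0 and 1 gene, Ttr, tested and not called. Alb and Apoa1 had 0 counts in all WT31 libraries and at most 9 and 4 in a WT31_P5IV library. The 7 endothelial markers summed to 0.158 to 0.488 and 0.163 to 0.464 CPM, with Cdh5 and Lyve1 at 0 and none above the filter. The 7 leukocyte and macrophage markers summed to 0.833 to 2.2004 and 3.59 to 5.07 CPM. Cd68 was the 1 tested gene of this list, and it was higher, whereas Ptprc had at most 2 counts and Adgre1 at most 1 in any library. The 6 fibroblast and stellate cell markers summed to 3.14 to 3.96 and 3.59 to 4.50 CPM, with 3 tested and Col1a1 higher. The 5 glia and Schwann cell markers, some of them shared with melanocytes, summed to 575 to 615 and 539 to 583 CPM, with 4 tested, 1 higher and 2 lower. The part of the neuron, leukocyte and other lists in the changes of single protocadherins was not tested.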

How the data were processed

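The authors removed low-quality reads with Trim Galore 0.6.4 and quantified them with kallisto (0.4.6 per the labels) against GRCm38.p6. They deposited 2 values per gene and library: estimated counts, which need not be whole, and TPM. Neither the annotation release nor the strand setting is given in the sources used here. GENCODE M21 held 54487 of the 55385 identifiers and supplied symbols, positions and transcripts. Estimated counts were rounded and tested in edgeR 4.0.16 (R 4.3.3) with filterByExpr, TMM scaling, the quasi-likelihood test over all 13620 genes that passed, and Benjamini-Hochberg adjustment. All adjusted p-values in the report come from this fit unless another is named. It was tested on simulated counts. The fit had 5 libraries per line and no covariate. The libraries differed by more than sampling noise (chi-square per gene 2.49 to 27.5) and were all kept.

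Named genes were all tested members, with the value of each library for members with an adjusted p under 0.05 and a log2 fold change of at least 1 in size and for the 3 members of highest mean TPM in each cluster, together with further genes singled out for a pattern after their values were seen. The family, the lists and these rules were chosen with earlier results of these data known. Of the listed symbols, 5 are not analysed here. Alternatives were DESeq2 1.42.0, limma 3.58.1 (voom, or log2 of TPM plus 0.1 or 1), upper-quartile scaling, other filters (at least 1 count, or at least 10 counts in every library), a replicate block and leaving out single libraries. Shared sequence was measured as 31-base words of annotated transcripts. Intervals cover counting error only.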

Additional observations from a re-analysis of the deposited data

Results flagged for a closer look

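In 76 groups of 5 libraries (each tested member in each line and the summed levels of the clusters), 1 library stood far from the others of its line. WT31 replicate 3 had 1.29 CPM of Pcdhgb1, as compared to 0.788 to 0.876 CPM in the other WT31 libraries, and its gap to the nearest of them was 0.824 of the range of the group. Chance alone flags about 1 in 20 groups. The value remained far below the lowest WT31_P5IV library, which had 11.2 CPM.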

How the results depend on the processing

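Of 24 called members, 17 kept call and direction in all alternatives run, and no member reversed. Pcdhac2, Pcdhga9 and Pcdhgb8, which had to differ because of the filter, are among these 17. Calls of Pcdhb6, Pcdhb10, Pcdhb13, Pcdhb15, Pcdhb18, Pcdhb21 and Pcdhga4 were lost in at least 1. Low counts and shared sequence limit what can be said of single alpha and gamma genes. The 5 members called lower became 8 with voom without TMM and at least 1 count, 10 with edgeR and at least 1 count, 2 with at least 10 counts in every library and 2 among members with few shared words, settings in which 53, 53, 26 and 20 members were tested. The 19 called higher were 19, 22, 16 and 15 there. The 3 members lower by at least 1 on the log2 scale became 6, 8, 0 and 0 in these settings, and 0 with limma on log2 of TPM plus 1. These 3 members, Pcdhac2, Pcdhga7 and Pcdhga9, were not tested with at least 10 counts in every library or among members with few shared words. The numbers called lower in those settings could therefore not include them and show no loss of their calls. The 11 members higher by at least 1 became 6 with limma on log2 of TPM plus 0.1 and 2 with TPM plus 1. An added constant makes log2 fold changes smaller in size where the TPM is near or below it. For example, Pcdhgb8 had mean TPM of 0.0200 in WT31 and 0.415 in WT31_P5IV. Its log2 fold change of 4.48 was 0.47 at the lowest among the alternatives. The median log2 fold change of all genes was also shifted by -0.17 and -0.16 in these fits, and the share of each in the lost members was not tested. The gamma sum had a ratio of 1.04 in CPM and 0.920 in TPM, and the cause was not tested. Of the promoter choice list 12 genes instead of 7 were higher without WT31 replicates 2 and 3, of the partner list 5 instead of 8 with either TPM fit, and of the non-clustered genes 0 instead of 1 were higher with either TPM fit and 5 instead of 3 lower with either fit at 1 count, where 11 were tested.

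Leaving out single libraries gave 17 to 20 members higher, 4 to 6 lower, 10 to 11 higher by at least 1 and 3 to 4 lower by at least 1. It gave 11 to 11 genes higher and 16 to 17 lower around the clusters, 7 to 9 and 6 to 8 in the promoter choice list, 7 to 8 and 11 to 12 in the partner list, and 1 to 1 and 3 to 3 in the non-clustered list. Ratios of summed levels were 0.435 to 0.477 for alpha, 1.65 to 1.72 for beta and 1.03 to 1.07 for gamma.

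Replicate numbers are names only, since same-numbered libraries deviated together weakly or not at all (correlations of -0.01, 0.07, 0.18, 0.08 and -0.10), and 2 of 5 WT31 libraries correlated best with their own number. Numbers follow the sample titles, and the library names of WT31 replicates 3, 4 and 5 carry 4, 5 and 6 instead, by which no pairing was fitted. With a replicate block 20 members were higher and 5 lower, 11 and 3 of them by at least 1. Pcdhb19 and Pcdhga1 gained and Pcdhb10 lost the call.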
